A study of Rattus norvegicus with 3 samples.

Results

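The regions described here are array probes that gained methyl-DNA capture in the PM group on all 3 arrays. They were selected on the measured contrast itself, by a deposited PM/non-PM ratio of at least 2 on each array. The PM channel also had to be well above background on each array, and spots marked as outliers by the scanner software were left out. The rule chose 2701 of 389347 non-control probes, or 0.694%. Because the ratios chose the members, they are given as a description and were not tested. The probes carry only a running number, so they are not paired here with genes, positions or sequences.

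Methylation of cytosine in CpG dinucleotides is a covalent mark of vertebrate DNA, and dense methylation at a promoter usually accompanies low transcription of its gene. Proteins with a methyl-CpG-binding domain bind such DNA and can pull methylated fragments out of sheared genomic DNA. A captured fragment reports the methylation of a stretch of DNA and not of a single cytosine. The Achilles tendon is a collagen-rich tissue built and repaired by tendon fibroblasts.

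The study asked how inhaled particulate matter bears on tendon healing. Both groups were male Sprague-Dawley rats, 8 weeks old and weighing 250 to 300 g, whose Achilles tendon had been cut through. The labels name tenotomy and repair, while the methods describe the tenotomy without a tendon repair. The PM group inhaled PM2.5 at 3 exposures per week for 6 weeks, and the non-PM group was not exposed. Tendon DNA was sheared, captured with the methyl-CpG-binding protein MBD2bt, amplified over the whole genome and hybridized to 2-color arrays. On each of the 3 arrays, DNA of 1 PM rat was labeled with Cy5 and DNA of 1 non-PM rat with Cy3. Every array had the same dye orientation, and an effect of exposure and an unequal response of a probe to the dyes cannot be told apart. Whole tendon was used, so a changed mix of cells and a changed methylation within cells cannot be told apart either. Arrays 1 and 2 lay on slide 1 and array 3 lay on slide 2, and with so few arrays the precision of all values is limited.

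The channels did not separate by group. Across all 389347 probes, which are not independent replicates, the log2 signals of the 3 PM channels correlated with each other at r of 0.885 to 0.908. The non-PM channel of array 3 correlated with the PM channels at 0.889 to 0.902, and with the non-PM channels of arrays 1 and 2 at only 0.568 and 0.606. Those latter channels correlated with each other at 0.940. The non-PM channels of arrays 1 and 2 therefore stood apart from the other 4 channels, and the ratios of array 3 contrast channels that resemble each other. The names given to the deposited scans pair rats of the same number on arrays 1 and 2 and rats of different numbers on array 3. Whether the channels of array 3 hold the samples their labels name was not tested, and every ratio of that array rests on those labels. Log2 ratios correlated at 0.829 between arrays 1 and 2, at 0.219 between arrays 1 and 3 and at 0.223 between arrays 2 and 3. Each result is accordingly given per array or with array 3 set apart.

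Among the members, the median ratio was 5.50 on array 1, 4.57 on array 2 and 2.30 on array 3. These medians include members whose non-PM channel was not well above background, for which a ratio is not an exact fold. The members lay far above the limit on slide 1 and close to it on slide 2, where the middle of the distribution ran only from 2.12 to 2.66 (quartiles). Averaged over the arrays, the log2 ratio of a member had a median of 2.01, with quartiles of 1.66 and 2.43. The 74286 probes chosen without array 3 had a median of 2.09 over arrays 1 and 2 alone, which is not the same measure. On array 3 their median log2 ratio was 0.18. The members had medians of 2.46, 2.19 and 1.20 on arrays 1 to 3. The medians of the 3 arrays had an SD of 0.66 on the log2 scale, and within a member the log2 ratios had a median SD of 0.75 over the arrays.

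Array 3 held the lowest ratio in 2300 of the 2701 members, array 2 in 238 and array 1 in 163. Array 3 held the highest ratio in 142 members, whose median ratios were 2.55, 2.48 and 3.74. Of these, 34 (23.9%) had another member at the adjacent probe number and 95 (66.9%) were above background in the non-PM channel on all arrays. A ratio of at least 4 was reached by 1870 members on array 1, by 1604 on array 2 and by 120 on array 3. On all arrays together, 283 members reached 3, 51 reached 4, 14 reached 5 and 1 reached 10. That probe, CUST_RP21364615, named after its values were seen, had ratios of 10.2, 10.1 and 17.2. On no array was its non-PM channel well above background, so these are not exact folds. Of the 283 members, only 35.7% had the non-PM channel well above background on all arrays, so most of these counts rest on faint denominators. Among members measured in both channels on all arrays, the 12 highest smallest ratios ran from 3.97 to 9.73. Among the members, log2 ratios of arrays 1 and 2 correlated at r = 0.56. The correlation with array 3 was -0.03 for array 1 and 0.01 for array 2, so the order of the members on slide 1 said next to nothing about their order on slide 2. These correlations are across the 2701 probes, within a range truncated by the rule.

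Few of the probes past the limit on 1 array were past it on all. Of all probes, 118639 had a ratio of at least 2 on array 1, 119459 on array 2 and 43519 on array 3, while 5388 did so on all 3. The PM channel then removed 2687 of these, and the outlier marks removed 0. Without array 3 the rule chose 74286 probes, compared with 4151 without array 1 and 3629 without array 2. The size of the group thus turned on array 3. A normexp correction with an offset of 50, followed by loess, left 83 probes, and the parts of that setting were not separated. A fold limit of 1.5 gave 13979 probes and a limit of 3 gave 283.

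The ratio of an array that took no part in the choice is not fixed by it. The arrays still share the dye orientation. Arrays 1 and 2 also share a slide, and their non-PM channels correlated at 0.940. Probes chosen on arrays 2 and 3 numbered 4151, and 79.4% of them reached 2 on array 1, beside 44.0% of all probes with a PM channel above background on that array. Probes chosen on arrays 1 and 3 numbered 3629, and 81.1% of them reached 2 on array 2, beside 42.6%. Both shares lay above the share of all probes. In each case 1 of the choosing arrays lay on slide 1 together with the array that was read. The other was array 3 as labeled, and these shares were not taken with its ratio turned around. After normexp correction the share on array 2 was 42.1% of 197, beside 7.12%.

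The reading across slides went differently. Of the 74286 probes chosen on arrays 1 and 2, 3.67% reached 2 on array 3, beside 10.2% of all probes with a PM channel above background there. The median log2 ratio of the chosen probes on array 3 was 0.18, compared with 0.16 for all such probes. The 74286 probes carried no limit on the PM channel of array 3, so the bases are unlike and the size of this gap is not read. With the PM channel above background on every array for both, as described below, the shares were 3.70% and 4.51%. In neither comparison was the share of the chosen probes the larger one. After normexp correction the order turned, with 0.578% beside 0.321%. Since the labels of array 3 were not tested, its ratio was also turned around, a reading added after seeing the data. A ratio of 0.5 or less on array 3 was found in 2.68% of the 74286 probes. Among all probes with a PM channel above background there it was 4.79%. That channel limit was not exchanged with the ratio, and the 74286 probes carried no limit on array 3. Since a low ratio goes with a faint PM channel, the bases are unlike, and no order is read from these shares. With array 3 turned and its channels exchanged in the rule, 1976 probes were chosen, compared with 2701.

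The shares were also taken over the 175220 probes with the PM channel above background on every array, a denominator chosen after the values had been seen. Here the array that was read took part in the choice through its own PM channel, so these shares are a description and not an independent reading. The share reaching 2 was then 89.9% of 3004 on array 1 beside 48.3% of all, 87.8% of 3078 on array 2 beside 46.4%, and 3.70% of 73024 on array 3 beside 4.51%. When the 175220 probes were divided into 10 equal bins by their PM signal on array 3, the probes chosen on slide 1 reached 2 there in 2.32% to 4.55%, and all probes in 2.05% to 5.84%. Their share was the higher one in the dimmest bin, at 4.55% beside 3.85%, and in the 2 brightest bins, at 3.13% beside 2.97% and 2.32% beside 2.05%. It was the lower one in the bins between, for example 3.78% beside 5.84% in bin 6. The median log2 ratio of the chosen probes was the higher one in all 10 bins, from 0.00 beside -0.24 in the dimmest to 0.12 beside 0.09 in the brightest. Whether these shares differ beyond the spread between rats was not tested, since array 3 is a single pair of rats.

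The signals behind the ratios show which channel was low. In the PM channels the members had median background-subtracted signals of 50.5, 48.8 and 99.4 on arrays 1 to 3, at percentiles 73.0, 71.1 and 79.9 of all probes. In the non-PM channels the medians were 15.7 and 11.4 on arrays 1 and 2, at percentiles 28.0 and 28.9, and 29.0 on array 3, at percentile 60.5. A high PM percentile and a low non-PM percentile follow in part from the rule, which required a PM channel above background and a ratio of at least 2. The non-PM channels still differed from each other, with the members below the middle on arrays 1 and 2 and above it on array 3. A probe's signal also depends on how well it binds, so these percentiles describe the channels and do not rank regions by methylation.

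Within array 3, the PM and non-PM log2 signals of the 2701 members, measured on the same spots, correlated at r = 0.966. On arrays 1 and 2 the same correlation was 0.698 and 0.755. Over all probes it was 0.889 on array 3, 0.534 on array 1 and 0.554 on array 2. The limit on the ratio raises such a correlation among the members, so nothing is read from their higher values.

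The mirror rule, with ratios of at most 0.5 on all arrays and the non-PM channel above background, chose 23102 losing probes, or 5.93%. Their median non-PM signals were 116, 76.9 and 29.9, and their median PM signals were 16.1, 16.7 and 8.06. Losing probes chosen on arrays 1 and 2 reached 0.5 or less on array 3 in 38.4% of cases, beside 16.0% of all probes with a non-PM channel above background on every array. Read in the same way, the share was 88.1% on array 1 beside 32.1%, and 87.9% on array 2 beside 31.0%. All these shares use array 3 as labeled and were not taken with its ratio turned around. As for the gaining probes with 3.70% and 4.51%, the channel limit covered the array that was read. The difference between the directions was not tested.

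The non-PM channel was not part of the detection rule but is the denominator of the ratio, so its faintness is partly set by the choice. It was well above background on all 3 arrays in 1376 members (50.9%), on some arrays only in 634 and 567 members (2 arrays and 1 array), and on none in 124. Of the 175220 probes detected in every PM channel, 89.3% also had the non-PM channel above background throughout. By array, 73.9% of the members passed in the non-PM channel of array 1, 55.8% on array 2 and 91.1% on array 3, beside 82.0%, 73.7% and 71.3% of all probes. Without array 3, 75.5% of the chosen probes passed on both remaining arrays.

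Members measured in both channels on all arrays had median ratios of 4.49, 3.81 and 2.26. These are the members whose ratios were measured on both sides. The deposited ratios of the other members partly rest on a denominator near background, so their medians are not set against these. For the 124 members whose non-PM channel passed nowhere, only a bound can be given. It was computed from separate channels averaged over the arrays. The non-PM side was the lowest signal well above background on each array, or the probe's own signal if higher. PM was at least 2-fold higher in each of the 124. These members were already chosen for a ratio of at least 2 on every array, so that count is largely set by the rule. The lowest such signal of an array is also the most lenient floor of its kind. That bound is open to dye bias.

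Probe numbers run without gaps, and adjacent numbers had similar ratios. Over all probes the log2 ratios of adjacent numbers correlated at r of 0.608, 0.604 and 0.323 on arrays 1 to 3, compared with 0.067, 0.073 and 0.047 at a distance of 100 numbers. The files used here do not state how numbers relate to the genome. Of the members, 431 (16.0%) had another member at the adjacent number, beside 1.36% of all probes. With median centring in place of the deposited ratio the share was 25.7%. Without array 3 it was 71.3% of the 74286 chosen probes, beside 29.9% of all probes. A losing probe lay next to 1.07% of the members and next to 10.5% of all probes.

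The tendency faded within a few numbers. Of the probes 1 number away from a member 8.89% were members themselves, followed by 3.92% at a distance of 2, 2.04% at 5 and 0.815% at 10, close to the 0.694% of all probes. Adjacent probes that missed the rule still had median log2 ratios of 1.27, 1.23 and 0.33 on arrays 1 to 3, and 55.8% of them had ratios above 1 on all arrays, beside 26.8% of all probes. Of the losing probes, 53.3% had a losing neighbour, beside 10.5% of all probes, and the difference from the gaining probes was not tested.

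Most members nevertheless stood alone. The 2701 members formed 2270 single probes, 154 runs of 2, 31 runs of 3, 4 runs of 4, 1 run of 5 and 1 run of 9. Their median log2 ratio over the arrays was 2.07 in runs and 2.00 for single probes. Members in runs had brighter PM signals than single members, with medians of 83.8, 81.9 and 180 against 45.7, 44.8 and 86.0. Their non-PM channel was above background on all arrays in 67.5%, compared with 47.8% of single members. Their ratios were nearly the same, with medians of 5.59, 4.61 and 2.44 against 5.48, 4.56 and 2.28.

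Within a run, probes are ranked here by the smallest of their 3 ratios, which is not the order of their means. The longest run, from CUST_RP21340998 to CUST_RP21341006, differed from the typical member in the array that led. Array 3 held the highest ratio in 7 of its 9 probes. CUST_RP21341000, which had the highest smallest ratio, had ratios of 7.57 and 7.83 on arrays 1 and 2. On array 3 the deposited ratio was 34.2, but the non-PM channel was not well above background there, so it is not an exact fold. In 7 of the 9 probes the non-PM channel was above background on all arrays, with CUST_RP21341000 and CUST_RP21341005 as the exceptions. CUST_RP21340998 had the lowest smallest ratio, with 4.07, 2.31 and 25.5, and CUST_RP21341003 the lowest mean, with 3.64, 4.45 and 3.31. Over the 9 probes the median ratio was 4.07 on array 1, 3.71 on array 2 and 11.8 on array 3.

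In that run the PM signals were similar on the 3 arrays, with medians of 240, 361 and 270. The non-PM signals had medians of 41.2, 41.1 and 13.8, so the non-PM channel of array 3 was the faintest of the 6 channels there, in contrast to the members at large. Its 9 spots were scattered over the array, from row 212 to row 977 and from column 61 to column 370. The flanking probes, named after their values were seen, were mixed. CUST_RP21340995 was itself a member, with ratios of 4.45, 7.92 and 10.4, the last against a non-PM channel not well above background. CUST_RP21340996 had ratios of 1.58, 2.43 and 9.52 and missed the limit on array 1. CUST_RP21340997 had ratios of 2.36, 1.64 and 12.2 and missed it on array 2. On the other side, CUST_RP21341007 had 2.19, 1.25 and 1.44 and missed the limit on arrays 2 and 3. The probe after it, CUST_RP21341008, was past the limit again on those arrays, with 1.52, 3.05 and 10.2, and missed it on array 1. On array 3 its denominator was likewise not well above background. CUST_RP21341009 had 0.990, 1.32 and 2.26.

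When the probe numbers were divided into windows of 50, a division made after the values had been seen, the window holding the start of this run had 9 members and the next one 8. Together they held 17, while 5787 windows held 0 and 1508 held 1. CUST_RP21341045, with ratios of 6.44, 9.55 and 5.87, lay in the latter window. No other window held more than 6 members.

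The run of 5, from CUST_RP21011544 to CUST_RP21011548, was highest on array 1. Its median ratios were 4.65, 2.74 and 2.95. CUST_RP21011544 had ratios of 3.97, 3.72 and 3.39, and CUST_RP21011548 had 5.83, 2.25 and 2.95. All 5 probes were measured in both channels on every array.

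The 3 runs of 4 that followed in rank had different shapes. From CUST_RP21159823 to CUST_RP21159826 the ratios on array 3 ran from 3.26 to 4.37. By smallest ratio, CUST_RP21159825 ranked first there with 4.81, 4.44 and 3.31, and CUST_RP21159826 last with 2.13, 3.56 and 4.37. From CUST_RP21284411 to CUST_RP21284414 the medians were 6.12, 8.44 and 2.68, so slide 1 led. Its highest smallest ratio was that of CUST_RP21284412, with 5.78, 13.8 and 3.15, and its lowest that of CUST_RP21284413, with 6.24, 9.06 and 2.05. From CUST_RP21085792 to CUST_RP21085795 the medians were 3.44, 4.08 and 2.53. Here CUST_RP21085793 was nearly level over the arrays at 4.19, 3.82 and 4.26, while CUST_RP21085794 fell to 2.14 on array 3.

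Among members measured in both channels and unsaturated on all arrays, the 12 with the highest smallest ratio had smallest ratios from 3.97 to 9.73. CUST_RP21199603 led with ratios of 11.9, 9.73 and 19.5. Its PM signals were 697, 486 and 845 against non-PM signals of 35.6, 23.5 and 29.4, so the channels were clearly separated on every array. Its neighbour CUST_RP21199602 was also among the 12, with ratios of 4.02, 4.75 and 11.1. In both probes of this pair array 3 held the highest ratio.

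Then came CUST_RP21341045, described above, and CUST_RP21243946, whose smallest ratio was 4.76 on array 2 and whose ratio on array 3 was 6.96. CUST_RP21145782 had the most even values of the 12, at 4.81, 4.72 and 5.34, with an SD of 0.10 on the log2 scale. CUST_RP21172097 had 7.19, 10.0 and 4.56. The other members of the group were CUST_RP21318447, CUST_RP21158161, CUST_RP21328051, CUST_RP21343578, CUST_RP21191901 and CUST_RP21284417. Over all 12 the ratios ran from 4.02 to 12.3 on array 1, from 4.47 to 10.9 on array 2 and from 3.97 to 19.5 on array 3. Array 3 was the lowest in 8 of them, and 6 had a member at the adjacent number.

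The members with the strongest PM signal had plain ratios well above the deposited ones. CUST_RP21295373 had background-subtracted PM signals of 9943, 5420 and 11523 against non-PM signals of 312, 157 and 2971, while its deposited ratios were 5.09, 5.09 and 2.06. The next in PM signal were CUST_RP21346895, CUST_RP21173788, CUST_RP21342448 and CUST_RP21085055. For these 5 probes the plain ratio of the background-subtracted channels ran from 14.5 to 35.3 on array 1, from 9.99 to 34.6 on array 2 and from 3.81 to 4.07 on array 3. The deposited ratios ran from 3.92 to 7.13, from 2.09 to 5.09 and from 2.06 to 2.31. In these 5 probes the plain ratios were lower on array 3 than on arrays 1 and 2.

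Some members had nearly identical deposited ratios on all arrays. CUST_RP21155396 had ratios of 2.28, 2.28 and 2.34, CUST_RP21162016 had 2.58, 2.66 and 2.65, and CUST_RP21258946 had 2.08, 2.15 and 2.08. Their SDs on the log2 scale were 0.02, 0.02 and 0.03. These probes were picked for their small SD in the deposited ratio, and the channels before that normalization were less even. CUST_RP21258946 had PM signals of 22.85, 25.28 and 37.25 against non-PM signals of 19.96, 13.57 and 13.83. Its mean log2 ratio of 1.07 was 0.68 under median centring, 0.49 under the software's log ratio and 0.27 under normexp with loess. As a measure of technical spread within an array, which is another quantity than the spread between rats, the most repeated control spot, with 384 copies on each array, had an SD of 0.10, 0.10 and 0.09 within an array in the software's log2 ratio, at PM signals of 507, 472 and 411. Dimmer controls, within the middle of the members' range of PM signals, had a pooled SD of 0.31 on array 1 (4 controls), 0.34 on array 2 (6 controls) and 0.09 on array 3 (1 control). Their non-PM signals were 115, 106 and 213, far above the members' medians of 15.7, 11.4 and 29.0. Those of the most repeated control were 903, 704 and 298. The controls thus do not measure the spread of ratios with a non-PM channel as faint as that of the members.

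The least even members measured in both channels had by far their highest ratio on array 1. CUST_RP21000164 had ratios of 34.3, 4.01 and 2.09, CUST_RP21163192 had 33.9, 9.79 and 2.06, and CUST_RP21236617 had 32.8, 7.83 and 2.05. All were lowest on array 3 and within 0.1 of the limit there.

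The limit ran through a dense part of the distribution. Of the members, 1147 (42.5%) had a smallest ratio under 2.2, and 2303 further probes met the other parts of the rule with a smallest ratio from 1.8 up to 2. Just inside lay CUST_RP21098157 with 36.2, 7.65 and 2.00, CUST_RP21143281 with 7.87, 3.31 and 2.00, and CUST_RP21124166 with 4.70, 2.28 and 2.00. Just outside lay CUST_RP21263419 with 3.53, 4.47 and 2.00, CUST_RP21211144 with 3.34, 2.11 and 2.00, and CUST_RP21076163 with 5.91, 5.08 and 2.00. In all 6 it was array 3 that decided, and the smallest ratios were equal to 3 significant digits. The non-PM channel of CUST_RP21098157 was not well above background on array 1, and that of CUST_RP21143281 passed on 1 array only.

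The members were spread over the whole array and the whole range of numbers. With the rows of the array divided into 4 equal bands, the bands held 27.4%, 27.1%, 24.3% and 21.2% of the members. The same division of the columns gave 26.3%, 21.7%, 23.7% and 28.3%, where each band held about 25% of all probes. Each of 20 equal stretches of the ordered probe numbers held between 96 and 164 members, or 3.55% to 6.07% of them. No single place on the array or stretch of numbers held most of the group.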

How the data were processed

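Methyl-DNA capture was measured on 3 custom Agilent 2-color arrays, each carrying 1 pair of rats (PM in Cy5, non-PM in Cy3). For each probe the authors deposited a linear PM/non-PM ratio, normalized by LOWESS with settings not given in the sources used here. Its direction and scale were taken from its correlation with the software's log ratio of the same array (r of 0.926, 0.942 and 0.973), and its centring stays unknown. The column medians were 0.959, 1.02 and 1.02. The deposited intensity of each spot comes from Agilent Feature Extraction 11.5.1.1, as median, background-subtracted and linearly dye-normalized values. The deposited log10 ratio is that of the dye-normalized signals, red over green. On the log2 scale its medians were -0.36 and -0.21 on arrays 1 and 2, against -0.06 and 0.04 for the deposited ratio, so that these differ in centring. The header names the build field rn4, but no position per probe.

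The members and lists were chosen with earlier results of these data known. Outlier marks were read on the spot, not on its local background. Named probes are the 12 members with the highest smallest ratio among those measured and unsaturated in both channels, the ends and the extreme members of the 5 longest runs, 3 members inside and 3 probes outside the limit, the 5 members brightest in PM, and 3 members each of smallest and largest SD. Flanks of the longest run and windows of 50 numbers were chosen later, with the values known. The gene lists of the design were not used, since the probes are not paired with genes.

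Correlations are Pearson's r over log2 values. No p-value was computed, since the contrast chose the members and a two-sided sign-flip test of 3 arrays cannot go below 0.25. Python 3.11.15 with numpy 2.4.6, pandas 2.3.3 and scipy 1.17.1 was used, with limma 3.58.1 in R 4.3.3 for the alternatives. These were loess (span 0.3), median centring, the software's ratio, normexp (offset 50) with loess, other fold limits and filters, each slide, and leaving out each array. Separate channels for the bound came from loess and Aquantile scaling. The rule, the runs and the loess step were tested on simulated data.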

Additional observations from a re-analysis of the deposited data

How the results depend on the processing

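The count of 2701 gaining probes stayed within 1.5 times under the loess ratio, median centring, the software's log ratio, outlier spots kept, saturated spots left out and, added after seeing the data, local background marks applied (2316). Of the members, 2058 (76.2%) were among the 2059 probes chosen under loess. Under the other 2 ratios the probes were partly others. Median centring chose 2745 probes, with 1900 (70.3%) of the members among them. The software's log ratio chose 2410, with 1653 (61.2%) of the members. Normexp with loess left 83 probes, with a median mean log2 ratio of 1.34, 81.9% with the non-PM channel above background and 14.5% with a gaining neighbour. Under it the reported members had median log2 ratios of 0.81, 0.64 and 0.56 on arrays 1 to 3, in place of 2.46, 2.19 and 1.20. A fold limit of 1.5 gave 13979 probes, 66.5% and 27.4%, and a limit of 3 gave 283, 35.7% and 13.1%. With no requirement on the PM channel the values were 5388, 25.9% and 13.4%. Requiring both channels left 1376 probes, which fixes their non-PM share by construction. Median centring gave 70.1% and 25.7%, and the software's log ratio 70.6% and 25.5%. Slide 1 alone gave 74286 probes, 75.5% and 71.3%, and array 3 alone 23926 with 35.1% neighbours. Leaving out each array gave 3629 to 74286 probes and a neighbour share of 15.6% to 71.3%. Over the arrays kept, the median log2 ratio was 1.71 to 2.09 and the non-PM share 44.5% to 75.5%. The highest count and neighbour share came without array 3.

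Among the held-out shares, arrays 1 and 2 gave 85.9% and 83.0% under median centring, beside 45.5% and 41.2% of all probes. Under the software's log ratio they gave 82.5% and 83.2%, beside 38.1% and 36.2%. Array 3 gave 2.90% under loess, beside 8.39%. For arrays 1, 2 and 3 in turn, normexp gave 91.2%, 42.1% and 0.578%, over 91, 197 and 14368 chosen probes. The shares of all probes were then 15.8%, 7.12% and 0.321%. A limit of 1.5 gave 87.2%, 88.8% and 15.1%, beside 53.0%, 52.6% and 22.3% of all probes. A limit of 3 gave 66.5%, 66.5% and 0.614%, beside 31.1%, 28.1% and 4.05%. With no PM requirement they were 58.4%, 62.3% and 5.87%, beside 30.5%, 30.7% and 11.2%. With both channels required they were 85.2%, 81.2% and 2.47%, beside 42.9%, 40.5% and 3.70%. With the PM channel required on all arrays, added after seeing the data, arrays 1 and 2 gave 89.9% and 87.8%, beside 48.3% and 46.4%. With the ratio of array 3 turned, also added then, its share was 2.68% and the count of gaining probes 1976. The share lay above that of all probes in 20 of 20 settings on arrays 1 and 2, and below it in 9 of 10 on array 3 as labeled, the exception being normexp at 0.578% beside 0.321%. These tallies include the settings with the PM channel, or both channels, required on all arrays. There the array that was read took part in the choice, so those shares are a description and not an independent reading. In the other settings, except with no PM requirement, the probes beside had a PM limit on the array that was read. The chosen probes had none there, so these bases are unlike. The causes were not tested. Of 168 mean log2 ratios of the 42 members named by rule, under the other normalizations, 100 moved by less than the probe's SD over the arrays and 68 moved by more. Of the 42, 35 were at least 2-fold on all arrays under loess, 38 under median centring, 35 under the software's log ratio and 7 under normexp. Each ratio pairs the rats of its array, and no test was run on the 3 ratios because they chose the members. On arrays 1 and 2, 73.9% and 55.8% of the members had a non-PM signal well above background, and the part of this in their ratios was not tested.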
